A study of Mus musculus with 4 samples.

Results

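Polyamine metabolism was followed in the microglia of demyelinating mouse brain through 9 genes, taken by symbol from the 32285 genes of the deposited single-cell matrices. The set comprised 4 synthesis enzymes (Odc1, Amd1, Srm and Sms), 2 enzymes of breakdown (Sat1 and Smox) and 3 regulators of ornithine decarboxylase (Azin1, Oaz1 and Oaz2). The set was chosen by the UMI level of Odc1, which had already been seen to be higher in these PRMT1-deficient cells. The genotype values of Odc1 are therefore given as a description with no test, whereas the other 8 genes belong to the set for their role and were read from a test across all genes.

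PRMT1FL and PRMT1Cx3cr1-KO mice were compared, with 2 mice each and 1 library per mouse. PRMT1FL mice carried floxed Prmt1 alleles, although their labels read wild type, and PRMT1Cx3cr1-KO mice carried the same alleles with the tamoxifen-inducible Cx3cr1-CreERT driver, which is active in microglia and in other Cx3cr1-expressing myeloid cells. Prmt1 encodes the main enzyme that dimethylates arginine asymmetrically. Per the labels all 4 mice were fed 0.2% cuprizone (CPZ), a copper chelator that kills oligodendrocytes, for 5 wk. The labels give an age of 5 to 6 wk for the diet, whereas the study's methods give that age for the tamoxifen that both genotypes received, with the diet begun later. CD11b+ CD45+ cells were then sorted from the brain and profiled with a 10x 3′ kit, which counts 1 molecule (UMI) per captured transcript end. No condition without CPZ was profiled here, so that all values come from mice on the diet. Per the paper, the isolation buffers held no inhibitor of transcription, and its authors saw no cluster driven by markers of the isolation. The part of the isolation in the levels below was not tested.

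Polyamines are small positively charged molecules that bind RNA and DNA and that dividing and activated cells need. Ornithine decarboxylase, made from Odc1, turns ornithine into putrescine. Spermidine synthase (Srm) and spermine synthase (Sms) then add aminopropyl groups, which S-adenosylmethionine decarboxylase (Amd1) supplies. Sat1 acetylates spermidine and spermine for export or oxidation, and Smox oxidises spermine back to spermidine. The antizymes Oaz1 and Oaz2 bind ornithine decarboxylase and bring it to the proteasome, and the antizyme inhibitor Azin1 captures antizyme and so frees the enzyme. In macrophages, arginine and polyamine metabolism is best known for its link with activation state.

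Much of this control acts on translation, which a count of transcript ends does not read, and 3 short sequences are shown for that reason. An antizyme is made only when ribosomes slip forward by 1 base at the stop codon of a first reading frame, which they do more often when polyamines are plentiful. GENCODE (GRCm38) draws this slip as a single base left out between neighbouring coding segments. In the lines below the stop codon is in capitals, and its first base is the one skipped. Both stretches lie in coding exons on the plus strand, at chr10:80828274-80828318 for Oaz1 and at chr9:65686251-65686295 for Oaz2. The third line is the upstream reading frame in the 5′ leader of Amd1, at chr10:40302155-40302175 on the minus strand, with its start and stop codons in capitals. Ribosomes stall there when polyamines are high.
Oaz1: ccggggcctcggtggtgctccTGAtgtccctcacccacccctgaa
Oaz2: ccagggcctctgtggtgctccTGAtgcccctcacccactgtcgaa
Amd1: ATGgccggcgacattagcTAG
The first frame of Oaz1 ran for 68 codons before the TGA and the shifted frame for 159 codons after it, against 32 and 157 codons in Oaz2. The antizyme windows shared 38 of 45 bases. The Amd1 frame held 6 codons before its stop and ended 296 bases ahead of the main start codon.

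The 4 libraries held 76943248 to 99559644 UMIs in 8284 to 11554 barcodes, and any pair of libraries shared 31 to 46 barcode sequences. After the cell filters and the removal of clusters with markers of border macrophages, neutrophils, monocytes or neural cells, 7809 to 10975 microglial cells remained per library. A list of 7 microglial markers summed to 9411 to 11036 scaled CPM (UMIs per 1000000 UMIs of the library, after TMM scaling) in each library. Of the 7, 2 were called lower in PRMT1Cx3cr1-KO (edgeR), as were 23 of all 13837 genes tested. Both PRMT1Cx3cr1-KO libraries were lower for 3 of the 7 and higher for 2, beside 27.7% and 26.2% of all genes. The cells are labelled quiescent, yet 1 cluster was led by Mki67 and Top2a. Libraries differed in traits outside the pathway. Erythroid genes summed to 248 and 96.7 scaled CPM in the PRMT1FL libraries and to 0.061 and 0.021 in the PRMT1Cx3cr1-KO libraries. A cluster led by Ms4a7 and Clec12a held 357 of its 457 cells in PRMT1Cx3cr1-KO replicate 2. It was kept as microglial, although both genes were also leading genes of a removed macrophage cluster. Neutrophil markers still summed to 1.04 and 12.8 scaled CPM in PRMT1FL microglia and to 0.671 and 74.8 in PRMT1Cx3cr1-KO microglia. Prmt1 itself stood at 93.2 and 86.1 scaled CPM in PRMT1FL microglia and at 69.8 and 67.8 in PRMT1Cx3cr1-KO microglia (log2 difference −0.38, adjusted p = 0.0762, edgeR). The deleted exons are not given in the sources used here and the tags are from the 3′ end, so this level does not check the deletion.

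Counts were summed per library over all microglial cells and compared with edgeR, whose quasi-likelihood test takes the mouse as the replicate. Scaled CPM rest on the TMM-scaled library size, log2 differences are PRMT1Cx3cr1-KO over PRMT1FL, and p-values are adjusted over all 13837 genes tested. All 9 polyamine genes passed the filter on low counts. Of these 13837 genes 89 passed the threshold of 0.05 (0.643%), 66 of them higher in PRMT1Cx3cr1-KO. None of the 8 genes other than Odc1 was among the 89. DESeq2 called none of the 8 either. Their smallest unadjusted p was 0.102 in edgeR, where 2737 of all genes had an unadjusted p under 0.05. Their log2 differences ran from −0.15 to 0.17 with a median of 0.02, beside a median of −0.004 over all genes.

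Odc1 (mm10 chr12:17544794-17551505, plus strand) gave 2803 and 2309 UMIs in the PRMT1FL libraries and 3988 and 4024 in the PRMT1Cx3cr1-KO libraries. These counts correspond to 32.7 and 32.5 scaled CPM in PRMT1FL and to 48.7 and 41.8 in PRMT1Cx3cr1-KO. The PRMT1FL libraries were nearly equal, and both PRMT1Cx3cr1-KO libraries lay above them, replicate 1 farther than replicate 2. Both PRMT1Cx3cr1-KO libraries lay above both PRMT1FL libraries for 26.2% of all genes. The Odc1 level was 1.39 times higher in PRMT1Cx3cr1-KO (log2 difference 0.47), and 7.31% of genes had a log2 difference at least as large. The log2 difference of Odc1 was 0.36 without PRMT1Cx3cr1-KO replicate 1 and 0.58 without PRMT1Cx3cr1-KO replicate 2. Per 100 microglial cells PRMT1FL libraries held 25.5 and 29.6 Odc1 UMIs, against 39.2 and 38.1 in PRMT1Cx3cr1-KO.

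**Figure D1:**
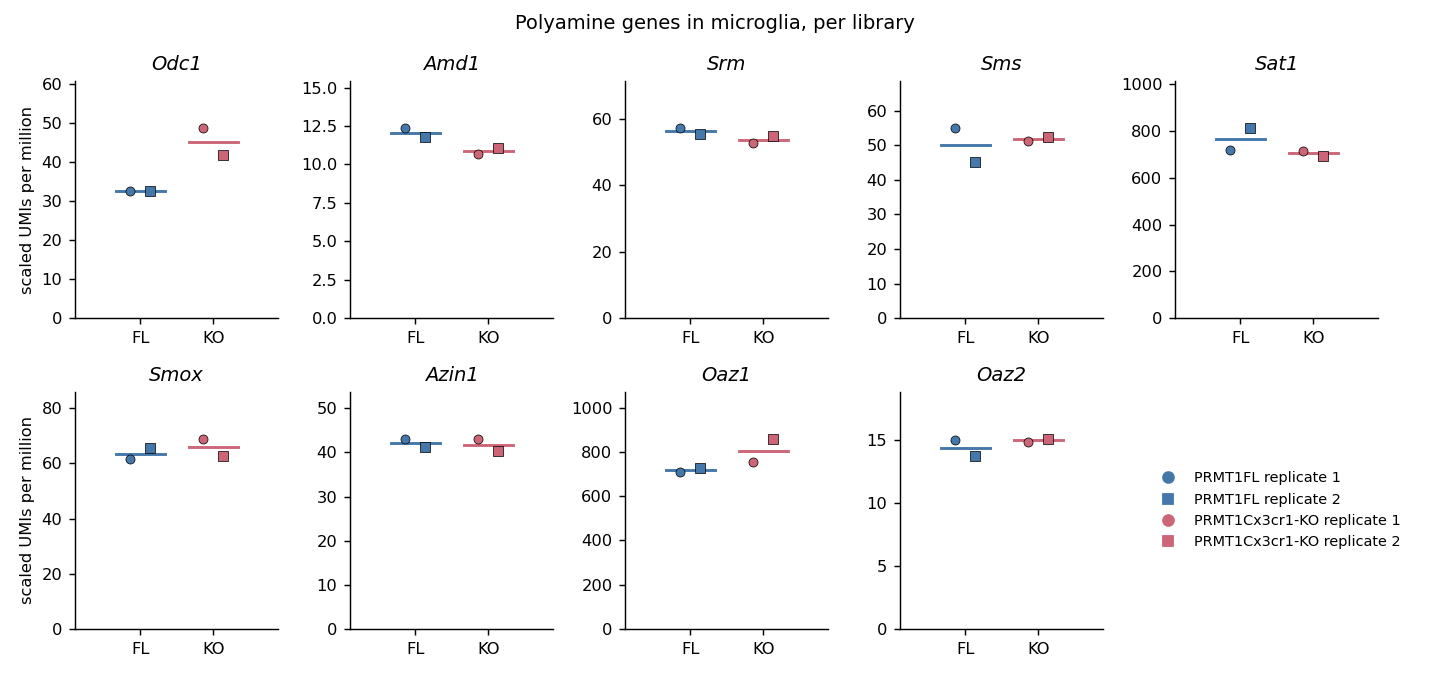
Level of each of the 9 polyamine genes in microglia, in scaled CPM (y axis from 0), with 1 point per library and a line at the mean of each genotype; FL is PRMT1FL and KO is PRMT1Cx3cr1-KO. Odc1 sits at 32.7 and 32.5 in PRMT1FL and at 48.7 and 41.8 in PRMT1Cx3cr1-KO, and no other gene shows a gap of that relative size.

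Among the other synthesis enzymes, Amd1 (chr10:40287458-40302186, minus strand) stood at 12.3 and 11.8 scaled CPM in PRMT1FL and at 10.7 and 11.1 in PRMT1Cx3cr1-KO. The genotypes did not overlap, with the lower values in PRMT1Cx3cr1-KO, as held for 27.7% of all genes in that direction. The log2 difference of −0.15 (SE 0.08) did not pass (adjusted p = 0.380). Amd1 has a near-identical copy, Amd2, which gave 12 to 18 UMIs per library, and reads that match both copies equally cannot be told apart.

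Srm (chr4:148591503-148594993, plus strand), which makes spermidine, stood at 57.0 and 55.4 scaled CPM in PRMT1FL and at 52.5 and 54.9 in PRMT1Cx3cr1-KO. Its log2 difference was −0.07 (SE 0.06, adjusted p = 0.587). Sms (chrX:157443855-157492287, minus strand), which makes spermine, stood at 54.8 and 45.2 in PRMT1FL and at 51.2 and 52.2 in PRMT1Cx3cr1-KO. The PRMT1Cx3cr1-KO values of Sms lay between those of the 2 PRMT1FL libraries, which differed from each other by more than the genotype means did (log2 difference 0.05, SE 0.10, adjusted p = 0.821). The genotypes did not overlap for Srm, with the lower values in PRMT1Cx3cr1-KO, and overlapped for Sms. Neither gene passed the test.

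On the side of breakdown, Sat1 (chrX:155213132-155216449, minus strand) stood at 717 and 811 scaled CPM in PRMT1FL and at 716 and 694 in PRMT1Cx3cr1-KO. PRMT1FL replicate 1 and PRMT1Cx3cr1-KO replicate 1 were nearly level, while PRMT1FL replicate 2 stood above the rest (log2 difference −0.12, SE 0.08, adjusted p = 0.488). Smox (chr2:131491496-131525922, plus strand) stood at 61.6 and 65.5 in PRMT1FL and at 68.8 and 62.8 in PRMT1Cx3cr1-KO, and the genotypes overlapped (log2 difference 0.05, SE 0.07, adjusted p = 0.749). No difference between genotypes was thus found in either enzyme of breakdown with 2 mice each.

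Of the regulators, Oaz1 (chr10:80826656-80829290, plus strand) stood at 710 and 726 scaled CPM in PRMT1FL and at 753 and 858 in PRMT1Cx3cr1-KO. Both PRMT1Cx3cr1-KO libraries were higher, replicate 2 by more, in the reverse order to Odc1. The log2 difference of Oaz1 was 0.17 (SE 0.09) and did not pass (adjusted p = 0.342). The call turned on the fit. Without PRMT1Cx3cr1-KO replicate 1 it passed at 0.26 (adjusted p = 0.0342), in a fit that called 18.3% of genes. It also passed at 0.15 (adjusted p = 0.00465) in limma with the cluster as a term, which called 20.3% of genes. That fit takes each cluster of each library as a point, and the clusters of a mouse as correlated to the same degree for all genes. Its p-value thus does not rest on the mice alone. Without PRMT1Cx3cr1-KO replicate 2 the difference was 0.07 (adjusted p = 0.683).

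The second antizyme, Oaz2 (chr9:65668001-65690300, plus strand), stood at 15.1 and 13.7 scaled CPM in PRMT1FL and at 14.9 and 15.1 in PRMT1Cx3cr1-KO (log2 difference 0.06, SE 0.08, adjusted p = 0.733). The antizyme inhibitor Azin1 (chr15:38487427-38519266, minus strand) stood at 42.9 and 41.2 in PRMT1FL and at 43.0 and 40.3 in PRMT1Cx3cr1-KO (log2 difference −0.02, SE 0.07, adjusted p = 0.921). The genotypes overlapped for both genes. Azin1 encodes a protein resembling ornithine decarboxylase without its activity, and it had the smallest genotype difference of the 9 genes.

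The choice of scaling moved the small differences. TMM factors were 0.975 and 0.974 for PRMT1FL and 1.01 and 1.05 for PRMT1Cx3cr1-KO. In plain CPM, without these factors, Odc1 was 31.8 and 31.7 in PRMT1FL and 49.0 and 43.7 in PRMT1Cx3cr1-KO (log2 ratio of the means 0.55). On the plain scale both PRMT1Cx3cr1-KO libraries were higher for Odc1, Smox, Azin1, Oaz1 and Oaz2, and the genotypes overlapped for Amd1, Srm, Sms and Sat1. Of all genes, 38.8% had both PRMT1Cx3cr1-KO libraries higher on the plain scale and 17.2% had both lower. On the TMM scale the genotypes did not overlap for Odc1 and Oaz1 (higher) and for Amd1, Srm and Sat1 (lower). Both PRMT1Cx3cr1-KO libraries were higher for 26.2% of all genes on that scale and lower for 27.7%. Among the polyamine genes, Odc1 and Oaz1 alone had both PRMT1Cx3cr1-KO libraries higher on both scales. The share of all genes higher on both scales was not counted.

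Ratios of UMIs within a library need no scaling and were compared across libraries. For every 100 Oaz1 UMIs PRMT1FL libraries held 4.60 and 4.48 of Odc1, against 6.46 and 4.86 in PRMT1Cx3cr1-KO. For every 100 Azin1 UMIs PRMT1FL libraries held 76.1 and 78.9 of Odc1, against 113 and 104 in PRMT1Cx3cr1-KO. The ratio to Oaz1 in PRMT1Cx3cr1-KO replicate 2 thus stood close to PRMT1FL, whereas the ratio to Azin1 stood apart in both PRMT1Cx3cr1-KO libraries. For every 100 Odc1 UMIs PRMT1FL libraries held 37.8 and 36.1 of Amd1, against 22.0 and 26.6 in PRMT1Cx3cr1-KO. Each of these ratios holds Odc1 and so repeats the contrast by which the set was chosen. A ratio without Odc1, that of Sat1 to 100 Smox UMIs, was 1164 and 1238 in PRMT1FL and 1041 and 1105 in PRMT1Cx3cr1-KO. The genotypes did not overlap there, and the share of all gene pairs without overlap was not counted. Within spermidine and spermine synthesis, the ratio of Sms to 100 Srm UMIs overlapped between genotypes (96.1 and 81.5 against 97.5 and 95.3). So did the ratio of Oaz1 to 100 Azin1 UMIs (1654 and 1761 against 1751 and 2129). The ratio of Oaz2 to 100 Oaz1 UMIs overlapped as well (2.12 and 1.89 against 1.98 and 1.76).

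**Figure D2:**
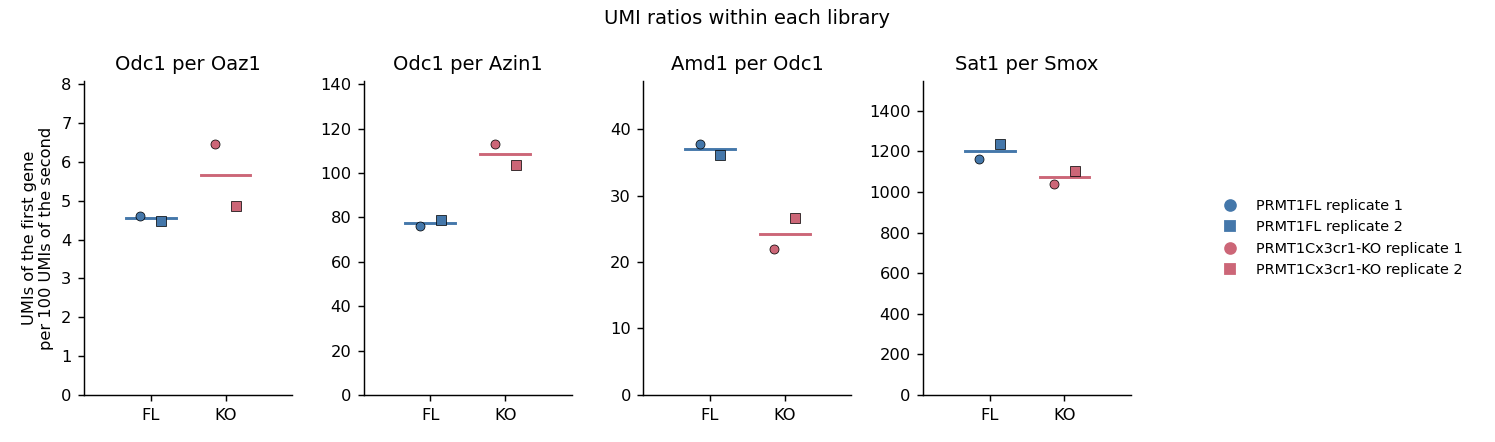
UMIs of one polyamine gene per 100 UMIs of another within each library (y axis from 0), with 1 point per library and a line at the mean of each genotype; FL is PRMT1FL and KO is PRMT1Cx3cr1-KO. Odc1 per 100 Azin1 UMIs is at 76.1 and 78.9 in PRMT1FL and at 113 and 104 in PRMT1Cx3cr1-KO, and Odc1 per 100 Oaz1 UMIs in PRMT1Cx3cr1-KO replicate 2 is 4.86, near the PRMT1FL values.

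Cell states were compared by cluster, from a clustering that left out the 9 genes, the lists below and 1414 genes that differed between the genotypes over all cells. Cluster 1 (14170 cells) was led by Itgax, Mmp12 and Postn, and cluster 2 (7852 cells) by Il12b, Tnfsf9, Ptgs2 and Cxcl2, genes of inflammatory activation. Cluster 3 (7728 cells) had 4 haemoglobin genes and then 6 genes of the cell cycle (Ube2c, Pbk, Nusap1, Pclaf, Rrm2 and Tk1) as its leading genes, and cluster 4 (6861 cells) was led by Il7r, Crybb1 and the homeostatic marker P2ry12. Cluster 5 (1743 cells) was led by Mki67, Cenpf and Top2a. It held proliferating microglia by the list markers Mki67, Top2a and Birc5 among its leading genes. Of the same list of proliferation markers, Ube2c and Pclaf stood among the leading genes of cluster 3 and not of cluster 5. Cluster 7 (685 cells) was led by the interferon genes Rsad2 and Ifit3. The median depth of a cell ran from 3405 UMIs in cluster 4 to 13089 in cluster 5. The Ms4a7 cluster held too few cells in 2 libraries to be tested. Levels by cluster are in plain CPM, per 1000000 of the cluster's own UMIs in each library, and carry no test between clusters.

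By the mean of the 4 libraries Odc1 was highest in cluster 5, led by Mki67. It was 54.8 and 50.7 there in PRMT1FL and 65.7 and 60.3 in PRMT1Cx3cr1-KO. In the inflammatory cluster 2 it was 39.0 and 43.4 in PRMT1FL and 63.7 and 63.4 in PRMT1Cx3cr1-KO. In the interferon cluster 7 it was 33.2 and 31.4 in PRMT1FL and 53.6 and 46.5 in PRMT1Cx3cr1-KO. The highest levels thus lay in clusters 5, 2 and 7. In the P2ry12 cluster 4 it was 25.4 and 25.3 in PRMT1FL and 41.8 and 31.7 in PRMT1Cx3cr1-KO. In cluster 1 it was 26.6 and 25.5 in PRMT1FL and 33.4 and 33.2 in PRMT1Cx3cr1-KO. In cluster 3 it was lowest, at 24.5 and 20.7 in PRMT1FL and 28.7 and 27.6 in PRMT1Cx3cr1-KO. Of the clusters with cell cycle genes among their leading genes, 1 thus had the highest mean and 1 the lowest. In PRMT1Cx3cr1-KO replicate 2, however, Odc1 was higher in cluster 2 than in cluster 5.

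Over the 4 libraries Odc1 averaged 57.9 in cluster 5 and 25.4 in cluster 3, a 2.28-fold range. The ranges over the 4 libraries overlapped for all 5 pairs of neighbouring clusters in this order, but they span both genotypes. Within each library Odc1 was higher in cluster 2 than in cluster 7, and higher in cluster 7 than in cluster 4. Both PRMT1Cx3cr1-KO libraries lay above both PRMT1FL libraries in 6 of 6 clusters, which held for 3.42% of the genes tested in all 6. The log2 difference per cluster, from a fit of its own, was 0.29 in cluster 1, 0.53 in cluster 2, 0.19 in cluster 3, 0.54 in cluster 4, 0.21 in cluster 5 and 0.61 in cluster 7. Cells were also thinned to 1000 UMIs each, which left out 274 to 464 microglial cells per library that held fewer. Odc1 in cluster 5 was then 33.5 and 62.5 in PRMT1FL and 70.0 and 60.1 in PRMT1Cx3cr1-KO. The genotypes thus overlapped in that cluster at this depth. Cluster 5 held 328 and 224 cells in the PRMT1FL libraries, so these thinned levels rest on few Odc1 UMIs.

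Clusters in which Odc1 was high held unequal shares of the libraries. Of the UMIs of the 6 microglial clusters tested, cluster 5 gave 5.32% and 5.23% in PRMT1FL, against 7.80% and 11.8% in PRMT1Cx3cr1-KO. All 7 proliferation markers were higher in both PRMT1Cx3cr1-KO libraries, as were 26.2% of all genes. These markers summed to 168 and 171 against 230 and 324 scaled CPM, and none was called. Cluster 2 gave 31.5% and 29.3% in PRMT1FL and 40.4% and 26.9% in PRMT1Cx3cr1-KO. With every library set to the same cluster makeup, Odc1 was 32.5 and 32.7 CPM in PRMT1FL and 46.2 and 44.5 in PRMT1Cx3cr1-KO (log2 ratio 0.47). That ratio is on the plain scale, where it was 0.55 with each library's own makeup. The PRMT1Cx3cr1-KO libraries then stood closer together than with their own makeup. On the scale of the fits, the log2 difference was 0.37 in limma with the cluster as a term. With cluster 5 left out of the sums it was 0.47, and it was also 0.47 with the Ms4a7 cluster left out. A list of 6 border macrophage markers summed to 21.1 and 21.3 scaled CPM in PRMT1FL and to 36.9 and 93.4 in PRMT1Cx3cr1-KO.

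**Figure D3:**
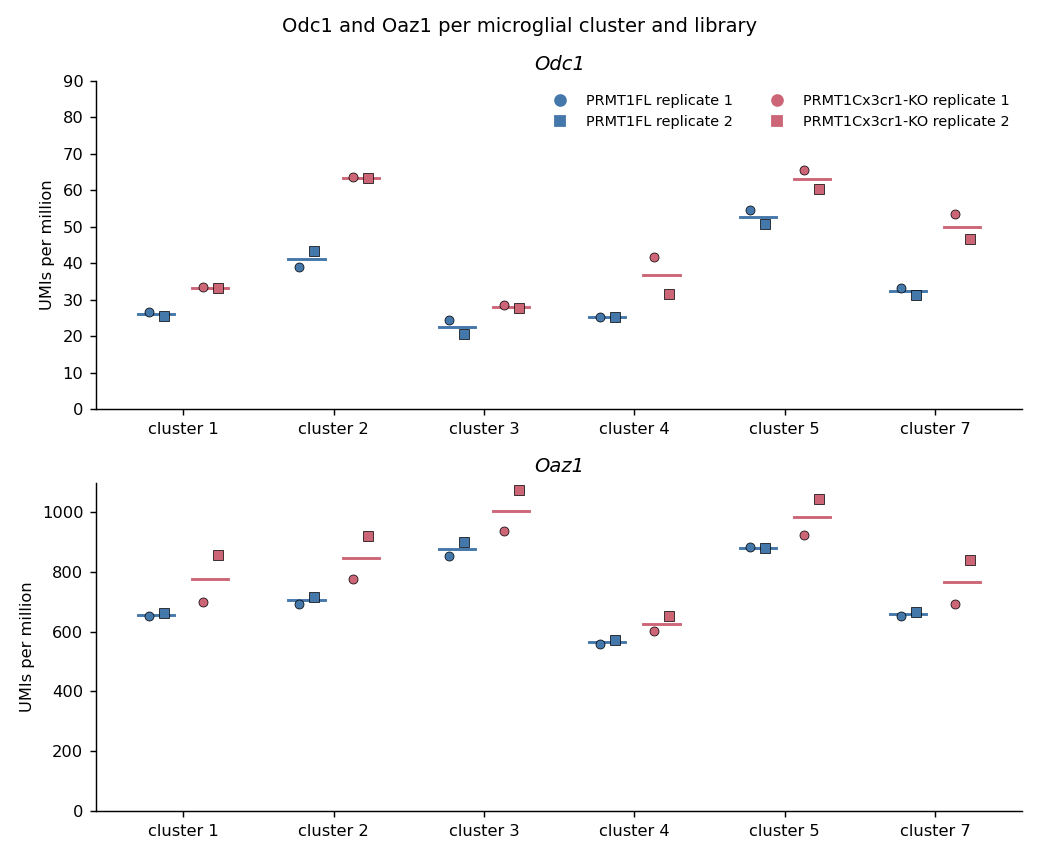
Levels of Odc1 and Oaz1 in the 6 microglial clusters with at least 50 cells in every library, in CPM of the cluster's own UMIs (y axes from 0), with 1 point per library and a line at the mean of each genotype. Odc1 runs from 20.7 in cluster 3 to 65.7 in cluster 5, and for both genes the PRMT1Cx3cr1-KO points lie above the PRMT1FL points in each cluster.

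The other genes had orders of their own across the clusters. Sat1 was highest in the P2ry12 cluster 4, with a mean of 1220 CPM, and lowest in cluster 3, with 405, the widest range of the set (3.01-fold). Smox was highest in the interferon cluster 7 (mean 91.8) and lowest in cluster 3 (44.4). Both enzymes of breakdown were thus lowest in cluster 3. Srm was highest there (mean 71.2) and lowest in cluster 7 (42.7). Sms was highest in the proliferating cluster 5 (mean 76.9) and lowest in cluster 4 (46.9), and Azin1 was also highest in cluster 5 (57.2) and lowest in cluster 7 (32.7). Amd1 was highest in cluster 4 (mean 14.2) and lowest in cluster 7 (8.95). Oaz1 was highest in cluster 3 (mean 941) and lowest in cluster 4 (595), whereas Oaz2 was highest in cluster 4 (18.4) and lowest in cluster 3 (12.4). The antizymes thus had opposite ends in this clustering. With another seed of the clustering the highest cluster for Oaz2 was not the lowest for Oaz1. At a resolution raised by 0.4 the antizymes had no end cluster in common. For Oaz1 and Oaz2 the ranges of all neighbouring clusters overlapped, where each range spans the libraries of both genotypes. Within each library Oaz1 was nevertheless higher in cluster 5 than in cluster 2. The highest cluster overlapped the next for Amd1 (4 and 5), Smox (7 and 4) and Azin1 (5 and 4), and the lowest overlapped the next for Amd1 (7 and 2), Srm (7 and 4), Sms (4 and 3) and Azin1 (7 and 3). With cells thinned to 1000 UMIs and those that held fewer left out, cluster 5 was highest for Amd1 and cluster 3 lowest for Sms and Azin1. The thinned Amd1 level in cluster 5 rests on few UMIs and ran from 6.56 to 22.3 CPM over the libraries. For Sat1 cluster 4 lay above every other cluster without overlap, and cluster 3 below every other.

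**Figure D4:**
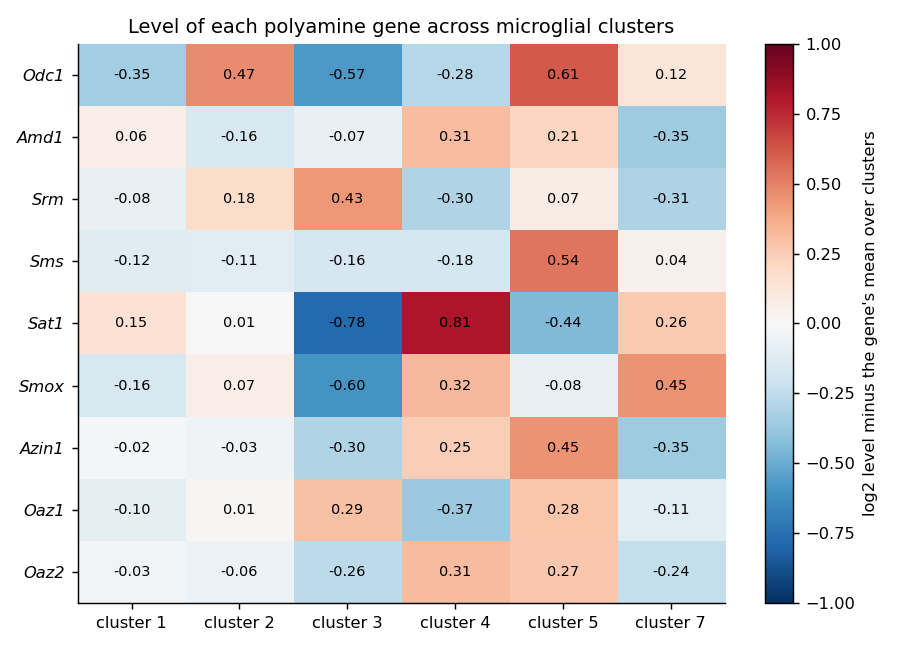
Mean level of each polyamine gene in 6 microglial clusters over the 4 libraries, as the log2 level minus that gene's mean over the clusters (colour and printed value); levels of different genes are not compared. Sat1 runs from 0.81 in cluster 4 to −0.78 in cluster 3, and Odc1 from 0.61 in cluster 5 to −0.57 in cluster 3.

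The genotype difference was tested within each cluster for the 8 genes other than Odc1, and none of the 48 tests passed. The share of all genes called was 0.151% in cluster 1, 0.477% in cluster 2, 3.5% in cluster 3, 19.1% in cluster 4, 0.458% in cluster 5 and 0.927% in cluster 7. Oaz1 was higher in both PRMT1Cx3cr1-KO libraries in 6 of 6 clusters in plain CPM, as were 3.42% of the genes tested in all 6. The clusters come from the same mice. In the edgeR fits the log2 differences of Oaz1 were 0.08 to 0.18 (adjusted p of 0.211 to 0.714). On the plain scale both PRMT1Cx3cr1-KO libraries were higher for 31.3% of genes in cluster 1, 40.1% in cluster 2, 38.3% in cluster 3, 28.1% in cluster 4, 25.2% in cluster 5 and 21.9% in cluster 7. In cluster 2 it was 692 and 717 in PRMT1FL and 777 and 919 in PRMT1Cx3cr1-KO. The smallest adjusted p belonged to Amd1 in cluster 4, at 15.6 and 16.9 CPM in PRMT1FL and 11.9 and 12.4 in PRMT1Cx3cr1-KO (log2 difference −0.41, SE 0.16, adjusted p = 0.0924), from 95 to 120 UMIs per library. Both PRMT1Cx3cr1-KO libraries were lower for 32.2% of genes in cluster 4. Without PRMT1Cx3cr1-KO replicate 1, Oaz1 passed in cluster 1 at 0.31 (adjusted p = 0.0232), where 12% of all genes were called, and Smox in cluster 4 at −0.32 (adjusted p = 0.0250), where 23.4% were.

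Whether the genotype difference of a gene differed between clusters was tested with limma, as the difference in 1 cluster minus the mean of the differences in the other 5. Of 48 such tests 1 passed, for Srm in cluster 4. There Srm stood at 37.1 and 41.3 CPM in PRMT1FL and at 46.5 and 46.6 in PRMT1Cx3cr1-KO, with both PRMT1Cx3cr1-KO libraries higher. In cluster 2 it stood at 61.7 and 58.8 in PRMT1FL and at 56.6 and 62.9 in PRMT1Cx3cr1-KO, and the genotypes overlapped. In cluster 3 it stood at 68.4 and 70.9 in PRMT1FL and at 71.4 and 74.2 in PRMT1Cx3cr1-KO, so that both PRMT1Cx3cr1-KO libraries were higher there too on the plain scale. The difference of Srm in cluster 4 exceeded that in the other clusters by 0.36 on the log2 scale (SE 0.12, adjusted p = 0.0468). For cluster 4 this test called 13.7% of all genes. Of the 8 polyamine genes tested for that cluster 1 was called, which is close to that share. The same test called 0.00816% of genes for cluster 1, 0.196% for cluster 2, 0% for cluster 3, 0.163% for cluster 5 and 0.00816% for cluster 7. The call was lost without PRMT1FL replicate 1 (adjusted p = 0.418), without PRMT1Cx3cr1-KO replicate 1 (0.213) and without PRMT1Cx3cr1-KO replicate 2 (0.108).

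**Figure D5:**
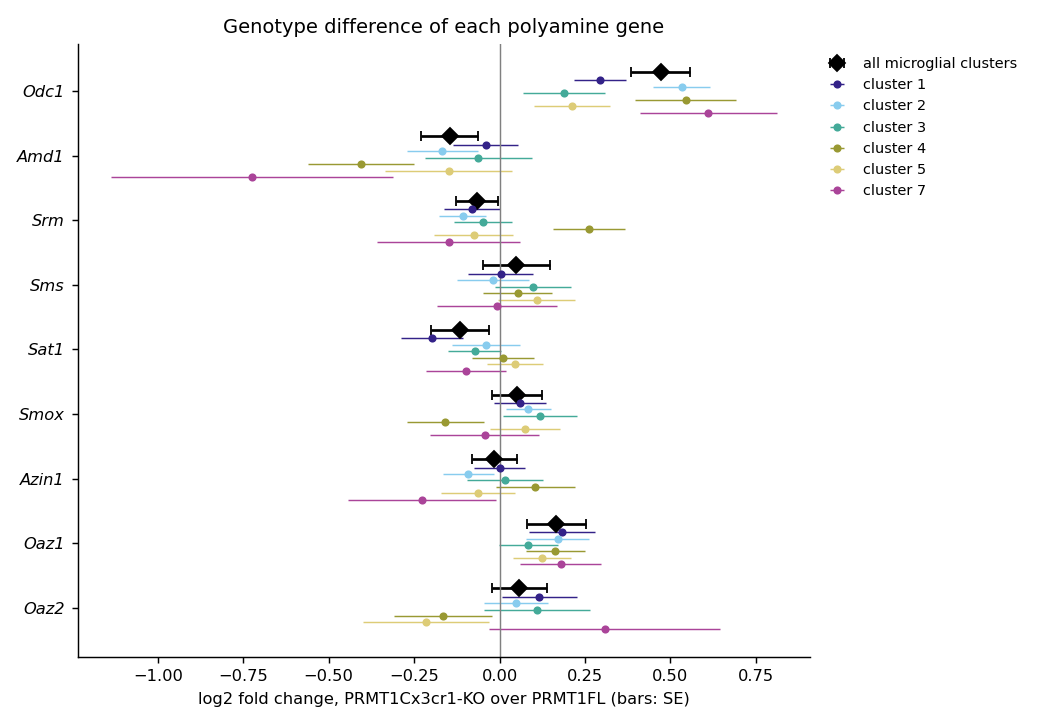
Log2 difference of each polyamine gene between PRMT1Cx3cr1-KO and PRMT1FL (x axis), over all microglial clusters (black diamonds) and within 6 clusters (coloured points), with bars of 1 SE. The bars of Odc1 are not to be read as a test, since its rise chose the set. Odc1 is at 0.47 over all clusters and above 0 in each, Oaz1 is at 0.17 over all clusters, and Srm is above 0 in cluster 4 at 0.26 and below 0 in the others.

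The genes whose levels moved most like those of Odc1 were found by Pearson's r of log2 CPM over 24 points (6 clusters in 4 libraries), among 7321 genes. The 10 nearest were Clic4 (r = 0.89), AI504432 (0.87), Ell2 (0.87), Slc39a14 (0.87), Cdkn1a (0.85), Srgn (0.84), Smarca5 (0.84), Phlda1 (0.83), Srebf1 (0.83) and Cxcl2 (0.82). Cdkn1a encodes a cell-cycle inhibitor, Srgn a granule proteoglycan, Slc39a14 a metal ion transporter, Srebf1 a regulator of lipid synthesis and Cxcl2 a chemokine. Cxcl2, for instance, averaged 876 CPM in cluster 2 and 9.93 in cluster 3. The points share libraries and the genotype difference of Odc1 is part of the pattern, so the r values are a description. Of the polyamine genes Sms came nearest (r = 0.66, place 150) and Amd1 was farthest (r = −0.25, place 6854). The r of Azin1 was 0.39, of Oaz1 0.34, of Oaz2 0.32, of Smox 0.35, of Sat1 −0.07 and of Srm −0.01.

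The genes around the pathway were read as 8 lists with 69 genes, of which 57 passed the filter on low counts and none was called (0.643% of all genes were). The p-values below are adjusted over all genes, from edgeR. Of the 57 genes 14 had both PRMT1Cx3cr1-KO libraries higher and 14 had both lower, beside 26.2% and 27.7% of all genes. Among 6 further polyamine enzymes and regulators, 4 were tested. Azin2, another antizyme inhibitor, stood at 0.956 and 1.10 scaled CPM in PRMT1FL and at 1.68 and 1.85 in PRMT1Cx3cr1-KO (log2 difference 0.78, adjusted p = 0.0932). Sat2, an acetyltransferase related to Sat1, stood at 3.95 and 3.83 in PRMT1FL and at 5.13 and 4.77 in PRMT1Cx3cr1-KO (log2 difference 0.35, adjusted p = 0.153). Both genes had both PRMT1Cx3cr1-KO libraries higher and neither passed. Of 8 genes that supply ornithine and S-adenosylmethionine 4 were tested, and those with the smallest p were Oat, ornithine aminotransferase (29.0 and 28.6 against 30.8 and 33.6, adjusted p = 0.258), and Arg1, arginase, which was near 0 in every library (0.014 to 0.134 scaled CPM).

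In the list of hypusination, in which spermidine is used to modify the translation factor eIF5A, all 4 genes had both PRMT1Cx3cr1-KO libraries higher, as did 26.2% of all genes, and none passed. Eif5a2 stood at 2.41 and 2.73 scaled CPM in PRMT1FL and at 3.34 and 3.42 in PRMT1Cx3cr1-KO (adjusted p = 0.169), and the modifying enzyme Dohh at 33.8 and 32.0 against 36.2 and 35.2 (adjusted p = 0.352). The median log2 difference of the list was 0.10. Of 6 tested genes of polyamine and arginine transport, 3 had both PRMT1Cx3cr1-KO libraries lower (median log2 difference −0.14), as did 27.7% of all genes. Atp13a2, a lysosomal polyamine exporter, stood at 76.3 and 64.6 in PRMT1FL and at 63.3 and 45.1 in PRMT1Cx3cr1-KO (adjusted p = 0.269), and Slc3a2, an amino acid transporter subunit, at 262 and 267 against 250 and 225 (adjusted p = 0.311). In methionine salvage, which recycles the by-product of Srm and Sms, 5 genes were tested, and Enoph1 (25.4 and 24.6 against 23.4 and 22.3, adjusted p = 0.304) and Mri1 (16.7 and 16.5 against 17.0 and 17.6, adjusted p = 0.692) had the smallest p.

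Odc1 is a textbook target of Myc, and 10 of 11 genes of the Myc network were tested. Myc itself stood at 21.73 and 21.71 scaled CPM in PRMT1FL and at 22.0 and 23.7 in PRMT1Cx3cr1-KO (adjusted p = 0.577, edgeR). Mxd3, a Max partner, stood at 1.36 and 1.39 in PRMT1FL and at 2.21 and 2.85 in PRMT1Cx3cr1-KO (log2 difference 0.88, adjusted p = 0.0865), and Max at 49.5 and 46.6 against 40.9 and 36.5 (log2 difference −0.31, adjusted p = 0.114). The median log2 difference was 0.03 for the network and 0.003 for 13 growth genes that respond to Myc. Of the latter, Nme1 (145 and 154 against 160 and 194, adjusted p = 0.250) and Ldha (564 and 538 against 506 and 496, adjusted p = 0.325) had the smallest p. Odc1 is also induced early by many stimuli. The 11 immediate early and heat shock genes summed to 7232 and 6742 scaled CPM in PRMT1FL and to 8185 and 5693 in PRMT1Cx3cr1-KO, with PRMT1Cx3cr1-KO replicate 1 highest, as for Odc1, and PRMT1Cx3cr1-KO replicate 2 lowest. Dusp1 stood at 459 and 457 in PRMT1FL and at 563 and 579 in PRMT1Cx3cr1-KO (log2 difference 0.32, adjusted p = 0.0887), and Hspa1b at 59.2 and 89.8 against 37.1 and 53.9 (adjusted p = 0.179). None of these lists passed for any gene, and their part in the level of Odc1 was not tested.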

How the data were processed

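The authors aligned reads from 4 libraries of sorted brain cells to mm10 with Cell Ranger 3.1.0, and the deposited matrices hold raw counts of UMIs per gene and barcode. Seurat 3.2.0 and Scanpy 1.5.2 also stand in the submitters' processing notes. The study's limits were applied to each barcode (between 200 and 6000 genes, mitochondrial share no higher than 10%). Cells were clustered with scanpy 1.11.5 (Leiden, resolution 0.3). Doublets were kept. The automatic threshold of scrublet marked 0 to 0.0386% of barcodes per library, so the alternative removed barcodes from the upper 6% of scores. UMIs of microglial clusters were summed per library and tested with edgeR 4.0.16 (TMM, filterByExpr, quasi-likelihood, Benjamini-Hochberg). DESeq2 1.42.0 and limma 3.58.1 served as alternatives. The edgeR and limma fits were tested on simulated data. SEs are the log2 difference over the square root of the F statistic, so those of Odc1 are not to be read as a test. The members and gene lists were chosen with earlier results of these data known. Named genes were the 9 members, in each list the 2 tested genes with the smallest p, and the 10 genes most like Odc1 with a mean of at least 10 CPM; Myc was added after its values were seen. With 2 mice per genotype, edgeR p-values measure the spread between these mice, moderated across genes. The limma p-values rest on sums per cluster and library, and so also on the spread between clusters within a mouse. Levels rest on 72860814 to 92174038 microglial UMIs per library. Replicate numbers did not pair the samples (correlation of deviations 0.0424).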

Additional observations from a re-analysis of the deposited data

Results flagged for a closer look

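In 1 of 48 tests over genes and clusters the genotype difference passed as unequal between clusters, for Srm (spermidine synthase) in cluster 4, led by Il7r, Crybb1 and P2ry12. It exceeded the mean difference of the other 5 microglial clusters by 0.36 on the log2 scale (SE 0.12, adjusted p = 0.0468 over all genes, limma). For cluster 4 that test called 13.7% of all genes and 1 of the 8 polyamine genes tested. The call of Srm thus lies near the share of all genes in that cluster. The call was lost in 3 of the 4 fits with 1 library left out (adjusted p of 0.418, 0.213 and 0.108). Srm was higher in 2 of 2 PRMT1Cx3cr1-KO libraries in cluster 4, and within that cluster alone the edgeR difference was 0.26 (adjusted p = 0.105).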

How the results depend on the processing

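The log2 difference of Odc1 stayed above 0 in all 14 settings (0.36 to 0.58). These settings reuse the libraries in which its rise chose the set, so the sign is a description and no test. The number of genes called, 89, became 728 with DESeq2, 1545 without a filter on low counts and 749 over all cells, and it ran from 4 (without either PRMT1FL library) to 2605 (without PRMT1Cx3cr1-KO replicate 1) with 1 library left out, and was 917 without PRMT1Cx3cr1-KO replicate 2. The replicate block, for numbers that do not pair the samples (correlation 0.0424), gave 279 genes and called none of the 8. The polyamine genes called, 0, ran from 0 to 1 with 1 library left out, Oaz1 being the one. Within clusters the 0 calls of 48 ran from 0 to 2 (without PRMT1Cx3cr1-KO replicate 1, Oaz1 in cluster 1 and Smox in cluster 4, in fits that called 12% and 23.4% of all genes). With 1 library left out, the sign of 4 small log2 differences turned, for Sms (−0.084 to 0.19), Smox (−0.010 to 0.11), Azin1 (−0.055 to 0.031) and Oaz2 (−0.0076 to 0.13), and that of Azin1 turned over all cells (0.018), none called.

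Between the highest and lowest cluster, thinning to 1000 UMIs moved the log2 range of Odc1 from 1.19 to 1.31 and of Srm from 0.74 to 1.36. It moved that of Azin1 from 0.81 to 1.12 and of Oaz1 from 0.66 to 0.76. Thinning also left out the cells that held fewer UMIs. The lowest cluster for Srm, cluster 7, held 115 to 217 cells per library, so its thinned level rests on few UMIs. A resolution raised by 0.4 moved the log2 range of Odc1 to 1.37, of Sat1 from 1.59 to 1.96 and of Oaz1 to 0.96. The alternatives on the difference between clusters, and the fits without the Ms4a7 cluster, were chosen after seeing the data. With 1 library left out, the 1 call between clusters ran from 0 to 1, and the effect of Srm in cluster 4 from 0.22 to 0.50. With the replicate block it was 0.36 (adjusted p = 0.0454, limma). The cause of these moves was not tested. With 2 mice per genotype, small differences may go undetected.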
